A study of Homo sapiens with 40 samples.

Results

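BEZ235 at its highest concentration was compared with the solvent DMSO in A2058 cells, an established human melanoma line. The comparison takes 8 of the 40 arrays of the study: 4 arrays of cells given BEZ235 at the level labelled max, and 4 arrays of cells given DMSO. Both groups were treated once for 24 hours in high-glucose medium with 10% serum, and the design names 4 biological replicates per group. No genetic change was introduced in either group, and all arrays come from this single line, so the p-values measure only the spread between its cultures. The study's other arms gave BEZ235 at IC50 and IC90, GDC0941 or BKM120. The molar concentration behind max is not given in the sources used here. Gene expression was read on 1-colour oligonucleotide arrays, as a signal in arbitrary linear units.

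BEZ235 (dactolisib) inhibits class I phosphoinositide 3-kinases (PI3K) and the kinase mTOR. PI3K makes the lipid messenger that recruits AKT to the membrane, and active AKT keeps FOXO transcription factors out of the nucleus. The mTOR complexes sense growth factors and amino acids, and they drive protein, lipid and nucleotide synthesis while restraining autophagy and lysosome formation. In melanoma the pathway runs beside RAS-RAF-MAPK signalling.

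The defining markers of the labelled cell type were present. MITF and SOX10, the transcription factors of the melanocyte lineage, lay between 1591.6 and 1843.5 and between 1575.3 and 1664.1 in the DMSO arrays, at the 98th and 97th percentile of all genes. S100B, a calcium-binding marker of melanocytes and melanoma named outside the rule, read 2096.4, 1894.2, 2182.3 and 2079.6 with DMSO and 1120.3, 1199.2, 1073.4 and 1086.7 with BEZ235, and it fell by 0.87 without overlap (-0.52 with averaged probe sets). Of 18 genes that mark fibroblasts, leukocytes, endothelium or epithelium, 10 passed the filter on low signal, of which 2 were higher and 4 lower with BEZ235. LUM and KRT18 were bright in this line, and PTPRC, CD3E, CD14, CDH5, VWF, EPCAM, KRT5 and CDH1 stayed below a signal of 7 on every array of both groups. The summed signal of the 18 genes was 2620 to 2760 with DMSO and 2560 to 2680 with BEZ235 (exact permutation test, two-sided, adjusted p = 0.343 over 4 array measures). The 3′ to 5′ signal ratio of GAPDH, a sign of RNA integrity, was 1.12 to 1.17 with DMSO and 1.05 to 1.16 with BEZ235. That of ACTB was 1.58 to 1.96 with DMSO and 2.01 to 2.29 with BEZ235, without overlap (exact permutation test, raw p = 0.0286, the smallest that 4 against 4 allows, and 0.114 after adjustment), and its part in the gene results was not tested. BEZ235 IC50 replicate 3, an array outside the groups compared here, had ratios of 3.44 for GAPDH and 27.2 for ACTB. It entered the shared variance, the choice of probe set, the filter on low signal and the principal component analysis below.

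Most tested genes differed between the groups. Of 11865 genes tested, 6868 (57.9%) were called at an adjusted p under 0.05, with 3882 (32.7%) higher and 2986 (25.2%) lower with BEZ235. Most differences were small: 517 genes (4.36%) moved at least 2-fold in signal + 16, the scale of every fold below, 324 (2.73%) up and 193 (1.63%) down. The signals of 6686 genes (56.4%) did not overlap between the 4 and the 4 arrays. The median log2 difference over all tested genes was 0.04, and all differences below are BEZ235 max minus DMSO on the log2(signal + 16) scale, which understates the change of dim genes. In a principal component analysis of the 16 DMSO and BEZ235 arrays, the first component held 48.3% of the variance. The first component placed DMSO at -31.3 to -30.1, BEZ235 IC90 at 14.3 to 15.6 and BEZ235 max at 19.1 to 20.3. The second held 26.3% and placed the degraded array, BEZ235 IC50 replicate 3, at -56.2, far from all others. Both shares of variance therefore depend on that array. Because every array was scaled to the same mean, fewer cells with a transcript, less of it per cell and a lower share of the RNA cannot be told apart. Each gene was read from its brightest probe set. Averaging all probe sets of a gene instead made 106 of the 377 called comparisons named here over 1.5 times smaller and 5 over 1.5 times larger. With that averaging A2M stood at 1.49, MFSD2A at -1.26, LRRC17 at -1.22, ADAM19 at -1.29, SESN3 at -0.84, SKP2 at -0.83, ASNS at -0.80, SELENOP at 0.69, DEPTOR at 0.59, INSR at 0.39, EEF1A1 at 0.29, TSC2 at 0.29 and FGFR1 at -0.23.

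**Figure D1:**
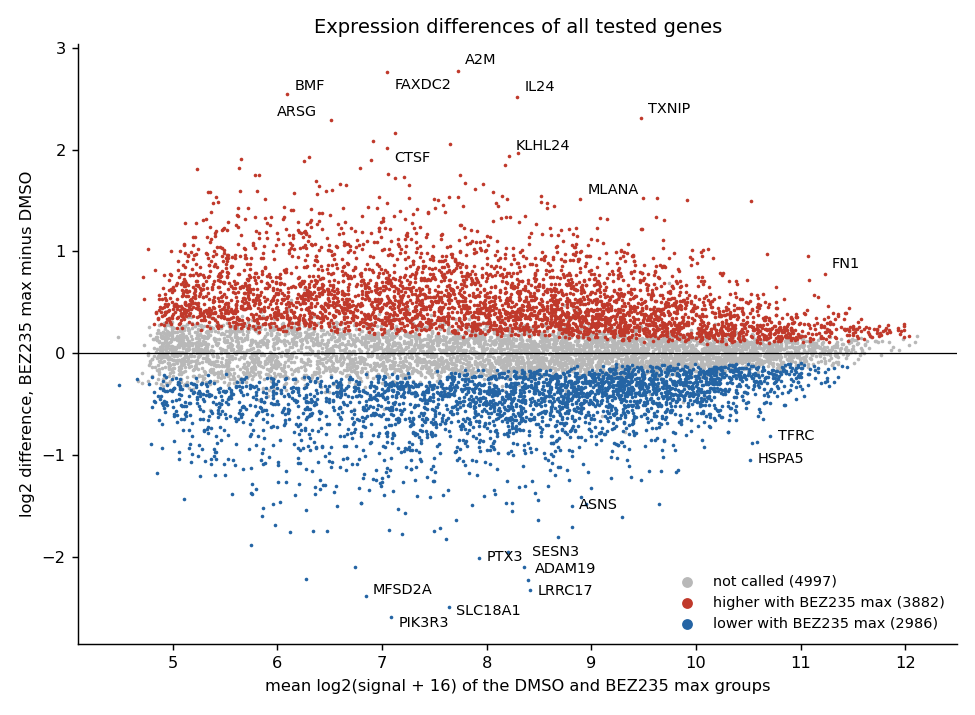
Each point is 1 of the 11865 tested genes, with its mean log2(signal + 16) over the DMSO and BEZ235 max groups on the x axis and its log2 difference, BEZ235 max minus DMSO, on the y axis; red and blue mark genes called at an adjusted p under 0.05. The 3882 higher genes reach 2.77 (A2M) and the 2986 lower genes reach -2.59 (PIK3R3), and the cloud narrows at high signal.

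The genes with the largest rise came from several functions. They were named only where the 4 and the 4 arrays did not overlap, as in 56.4% of all tested genes. A2M, alpha-2-macroglobulin, a secreted inhibitor of many proteases, gave signals of 68.9, 63.9, 54.7 and 74.6 with DMSO and of 617.1, 558.0, 482.4 and 505.2 with BEZ235. All 4 treated arrays lay far above all 4 controls, a log2 difference of 2.77 ± 0.13 (SE, n = 4 per group, limma adjusted p = 3.34e-20). FAXDC2, a fatty acid hydroxylase domain protein, was at 35.7, 44.8, 31.5 and 29.2 with DMSO and at 283.4, 380.6, 326.3 and 335.4 with BEZ235, a 6.78-fold rise of signal + 16. IL24, a cytokine of the interleukin-10 family first found in differentiating melanoma cells, read 116.7, 103.9, 103.4 and 137.8 in the controls and 779.0, 685.6, 730.6 and 735.9 in the treated arrays (2.52 ± 0.08, adjusted p = 5.68e-24). IL24 separated the groups by more than the whole spread within either. The lysosomal sulfatase ARSG rose by 2.29, the endothelial receptor phosphatase PTPRB by 2.16, the leukocyte surface receptor SLAMF7 by 2.08 and the Dishevelled-binding protein DACT1 by 2.05. KLHL24, a substrate adaptor of the CUL3 ubiquitin ligase, rose by 1.94, ZNF300P1 rose by 1.91 and NATD1 by 1.85, and REPS2, SPATA7, PTPRR, BEX2, CARD16, ANXA2R and TRAPPC6A rose by 1.75 to 1.90. CARD16 came from near background, at 0.4 to 6.7 in the controls against 41.6 to 62.9.

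The gene that fell furthest belongs to the inhibited pathway itself. PIK3R3, the p55-gamma regulatory subunit of class I PI3K, gave 308.2, 355.3, 326.0 and 285.3 with DMSO and 45.2, 49.7, 35.2 and 29.4 with BEZ235 (-2.59 ± 0.15, adjusted p = 4.61e-17, signal + 16 being 6.04-fold lower). SLC18A1, a vesicular monoamine transporter, was at 401.7 to 523.9 in the controls and at 61.2 to 73.2 in the treated arrays, and it fell by 2.50. MFSD2A, a transporter of lysophospholipids, was at 228.9 to 263.3 and at 33.5 to 34.9, and it fell by 2.39. None of these 3 genes overlapped between the groups, which the rule for naming them required and which held for 56.4% of all tested genes. The other large falls included LRRC17 (-2.33), the metalloprotease ADAM19 (-2.23), the potassium channel subunit KCNG4 (-2.22), autotaxin, encoded by ENPP2 (-2.10), the pentraxin PTX3 (-2.01), the interleukin-7 receptor IL7R (-1.89), the sulfatase SULF1 (-1.78), CRISPLD2 (-1.76), the proteoglycan VCAN (-1.75) and the protocadherin PCDH7 (-1.72). ST6GALNAC3, a sialyltransferase, fell by 1.96, SPRR2B by 1.81 and AASS, an enzyme of lysine breakdown, by 1.75. SOX2, a transcription factor of stem and neural progenitor cells, read 196.9 to 262.0 with DMSO and 51.4 to 65.9 with BEZ235, and it fell by 1.74.

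**Figure D2:**
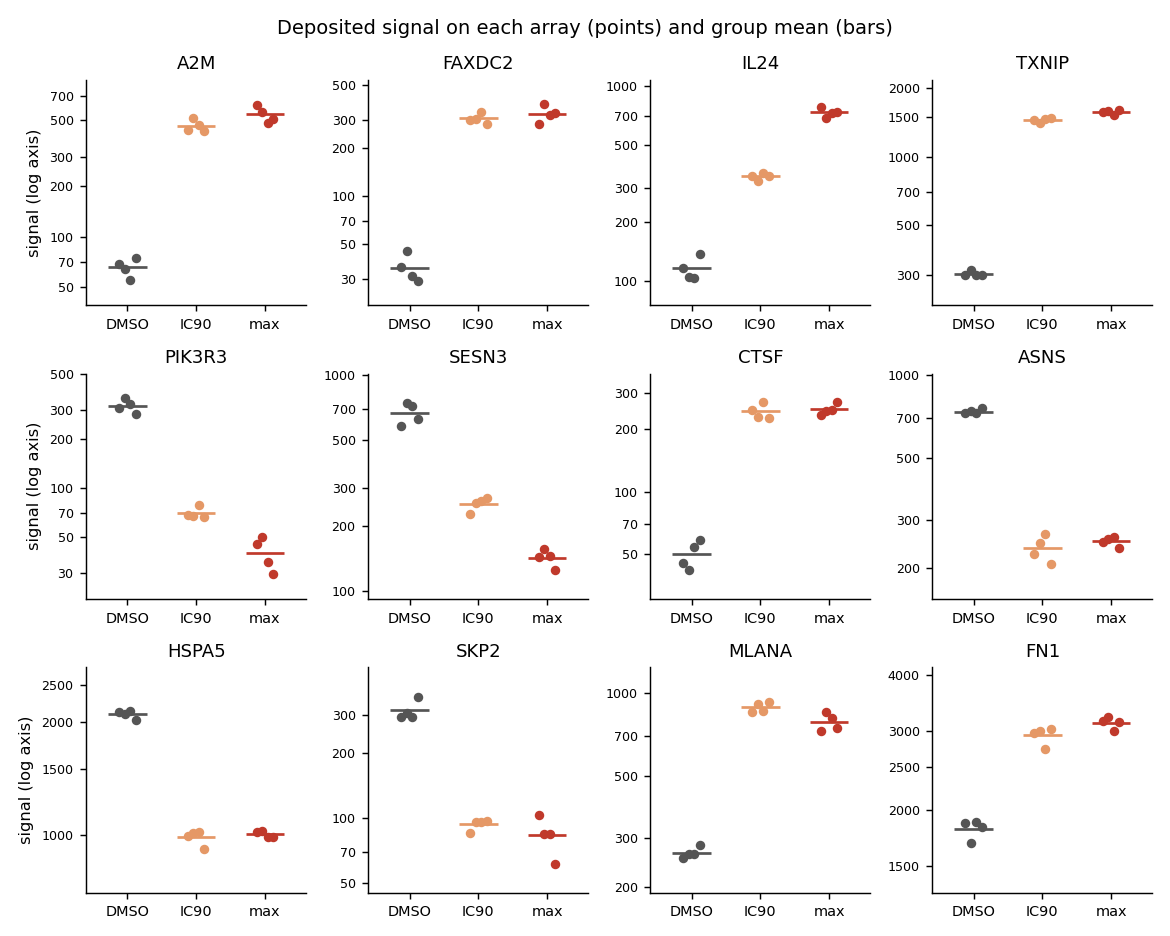
Deposited signal on a log axis of 12 genes on each array with DMSO, BEZ235 IC90 and BEZ235 max, with points for the 4 arrays of a group and a bar at their mean. In every panel the 4 arrays at BEZ235 max lie apart from the 4 DMSO arrays, and IL24, PIK3R3 and SESN3 also part between IC90 and max.

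PIK3R3 was by far the most changed of the PI3K genes. Of 14 tested genes for PI3K subunits and phosphatases of the pathway, 2 rose and 5 fell, with a median difference of 0.06 that becomes -0.01 after quantile normalization. PIK3R1, the p85-alpha subunit that stabilises and restrains the catalytic partner, read 664.8, 688.2, 751.2 and 688.6 with DMSO and 424.8, 404.5, 384.5 and 385.7 with BEZ235 (-0.78 ± 0.10, adjusted p = 3.4e-08). The catalytic subunit genes PIK3CB and PIK3CD differed by -0.04 and 0.15 and were not called. PIK3CG and the class II kinase PIK3C2B fell by 0.31 and 0.35, and PIK3C3, the class III kinase that starts autophagosomes, rose by 0.43. Among the phosphatases, PHLPP2, which dephosphorylates AKT, fell by 0.93 and INPP4B rose by 0.20 (0.09 and not called with averaged probe sets), whereas PHLPP1, INPP4A and INPPL1 at 0.13 to 0.16 were not called. Fitting only the 8 arrays, or 39 arrays without the degraded one, raised the higher members from 2 to 4. PIK3C2A and PIK3R4, at 0.09 and 0.03, were not called in the fit reported here.

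Of 47 tested AKT and mTOR genes, 15 rose and 14 fell, close to the shares of all genes, and their median difference was 0.00. DEPTOR, the inhibitory subunit of both mTOR complexes, was at 11.0, 32.7, 10.5 and 8.7 with DMSO and at 69.8, 56.9, 71.2 and 51.8 with BEZ235 (1.36 ± 0.15, adjusted p = 1.3e-09). TSC2, whose product switches off the mTORC1 activator RHEB, rose by 0.83, from between 114.1 and 119.0 in the controls to between 197.1 and 266.5. RRAGD and RRAGC, 2 of the GTPases that carry mTORC1 to the lysosome, rose by 0.82 and 0.54. The kinases themselves moved little: MTOR differed by -0.10, AKT1 by -0.14, RPS6KB1 by 0.00, GSK3A by 0.01 and GSK3B by 0.02, none called, though AKT1 was with the 8 arrays alone (adjusted p = 0.0171), whereas PDPK1 rose by 0.41, SGK1 rose by 0.25, AKT2 fell by 0.26 and RPS6KB2 fell by 0.25. The calls of AKT2 with averaged probe sets (-0.09), and of RPS6KB2 without any 1 of 5 arrays (adjusted p up to 0.0843), were lost. In the complexes, RICTOR, the core of mTORC2, rose by 0.44, MLST8 by 0.36 and PRR5 by 0.30, and RPTOR, the core of mTORC1, fell by 0.33, AKT1S1 by 0.35 and MAPKAP1 by 0.30. PRR5 was not called after quantile normalization (0.16), AKT1S1 without BEZ235 max replicate 1 (adjusted p = 0.0759) and RPTOR without DMSO replicate 2 (adjusted p = 0.0502).

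All 3 sestrins, which restrain mTORC1, fell. SESN3 read 583.9, 744.8, 716.3 and 628.8 with DMSO and 144.7, 156.6, 145.7 and 125.8 with BEZ235 (-2.10 ± 0.08, adjusted p = 9.39e-22). SESN2 dropped from between 49.8 and 59.3 to between 14.3 and 20.3 (-1.10 ± 0.09), and SESN1 from between 70.6 and 84.5 to between 37.2 and 39.8 (-0.78 ± 0.09). CASTOR2, grouped with the upstream regulators of mTOR, fell by 1.04, from between 39.8 and 50.5 to between 7.6 and 17.5. FNIP1, NPRL2 and LAMTOR4 rose by 0.24 to 0.32 (LAMTOR4 was 0.17 and not called without DMSO replicate 2, adjusted p = 0.0519), and FNIP2 and DDIT4 fell by 0.28 and 0.23. TSC1 (-0.14), RHEB (0.09), RRAGA (-0.03), FLCN (0.15), DEPDC5 (0.20), NPRL3 (0.20), TBC1D7 (0.00), LAMTOR2 (-0.01), LAMTOR3 (0.11), LAMTOR5 (0.02), TELO2 (-0.19), TTI1 (-0.01) and TTI2 (-0.10) were not called. With averaged probe sets TBC1D7 was called at -0.29 (adjusted p = 0.00086) and LAMTOR3 at 0.18 (adjusted p = 0.0106). DEPDC5 was called with the 8 arrays alone (adjusted p = 0.0434), NPRL3 with 39 arrays (adjusted p = 0.0189) and RHEB without DMSO replicate 4 (adjusted p = 0.0299). Every tested gene of the translation arm was called: EIF4B, EEF2K and RPS6 rose by 0.39, 0.30 and 0.22, and the repressors EIF4EBP1 and EIF4EBP2 fell by 0.26 and 0.15 together with EIF4E at -0.25. EEF2K stood at -0.07 with averaged probe sets, RPS6 at 0.04 after quantile normalization and EIF4EBP2 at -0.12 without DMSO replicate 3, none called. With a filter at the 60th percentile of signal, 9 of 33 tested members of the whole list fell.

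**Figure D3:**
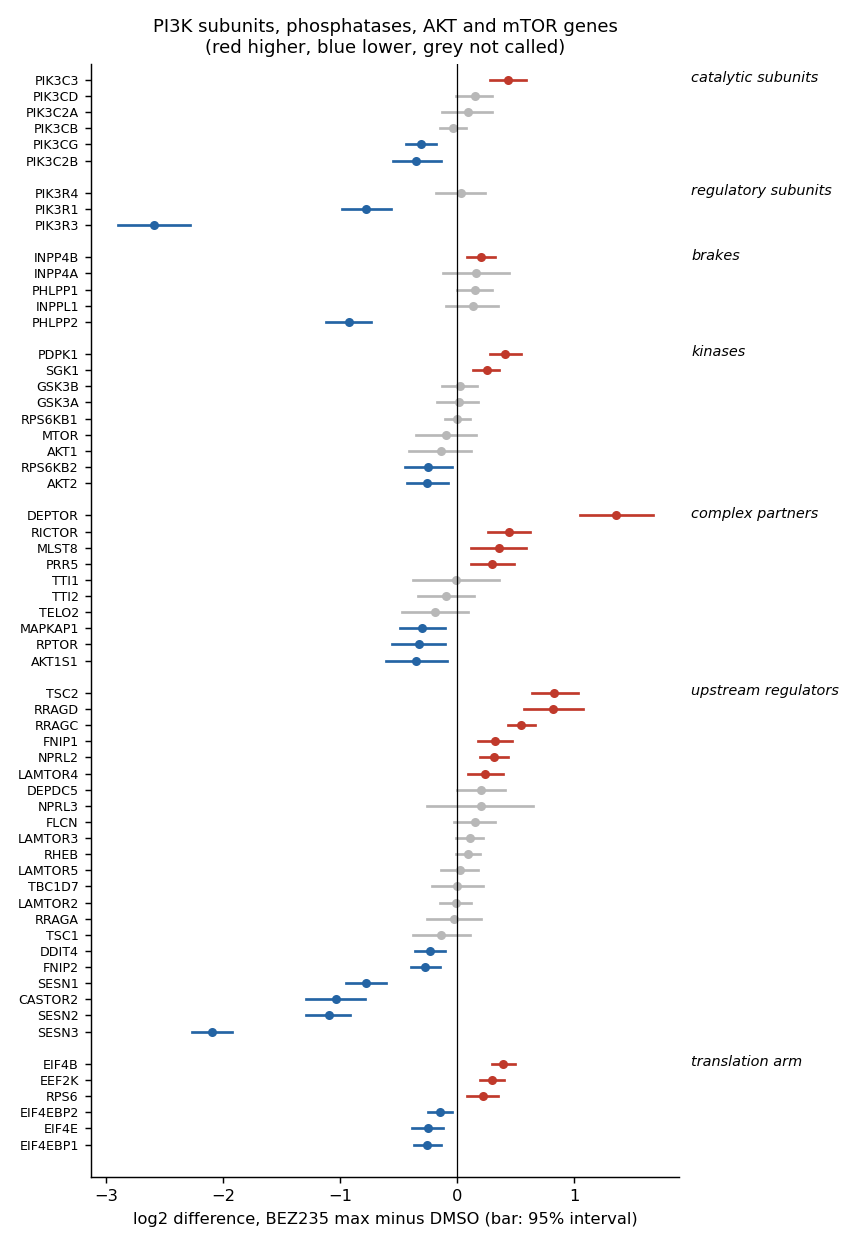
Log2 difference, BEZ235 max minus DMSO (points), with its 95% interval from the limma fit (bars) for the tested genes of the PI3K subunits and phosphatases and of the AKT and mTOR core, grouped by role; red is called higher, blue called lower and grey not called. PIK3R3 at -2.59 and SESN3 at -2.10 lie farthest to the left and DEPTOR at 1.36 farthest to the right.

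Receptors that feed PI3K rose more often than they fell. Of 31 tested receptors and adaptors, 15 were higher and 4 lower, with a median of 0.21 against 0.04 over all genes. INSR, the insulin receptor, read 60.6, 46.5, 55.9 and 47.7 in the controls and 147.8, 134.3, 120.5 and 116.2 with BEZ235 (1.09 ± 0.15, adjusted p = 1.6e-07). IRS1, the docking protein of insulin signalling, rose by 0.53, IGF1R by 0.47, the receptor kinases TYRO3 by 0.45 and ERBB2 by 0.42 (0.14 and not called with averaged probe sets, and not called without BEZ235 max replicate 1, adjusted p = 0.0645), and the adaptors SHC2 and GAB2 by 0.72 and 0.45. FGFR1 went the other way, from between 112.8 and 128.9 to between 44.7 and 69.9 (-0.91 ± 0.09).

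FOXO1 and many known FOXO targets rose together. Of 41 tested genes of this list, 27 were higher and 7 lower, with a median of 0.38. FOXO1 itself was at 331.5, 352.7, 324.6 and 314.5 with DMSO and at 708.9, 690.4, 713.2 and 709.3 with BEZ235 (1.06 ± 0.09, adjusted p = 6.29e-13). TXNIP, a thioredoxin inhibitor that also lowers glucose uptake, went from 300.8, 316.6, 301.0 and 300.5 to 1572.3, 1582.0, 1529.0 and 1604.8 (2.31 ± 0.06, adjusted p = 9.76e-29). The replicates of TXNIP lay close together in both groups, and signal + 16 differed 4.95-fold between the groups. SELENOP, the plasma selenium carrier, rose by 1.75, YPEL3 by 1.37, the transcriptional regulator CITED2 by 1.20, and the cyclin CCNG2 and the atrophy ubiquitin ligase FBXO32 by 0.82 and 0.85. SESN3, also on this list, fell, as given above.

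The stretches around a FOXO core site in the TXNIP and SELENOP promoters are shown because both genes are on the FOXO list and rose by at least 2-fold. The site searched was GTAAACA on either strand within 250 bases before the gene start, from the RefSeq promoter table on GRCh38.p14, and capitals mark it. TXNIP lies on the minus strand at chr1:145996672-145996728 and SELENOP on the minus strand at chr5:42811906-42811962. These and the other stretches printed below were picked after the values were seen.
TXNIP: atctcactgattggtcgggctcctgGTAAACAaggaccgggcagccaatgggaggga
SELENOP: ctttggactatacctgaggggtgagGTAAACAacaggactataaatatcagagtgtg
The core was found in 3 of 36 FOXO-list promoters (8.33%), in 2.98% of all 27305 promoters, in 1.89% of those of tested genes, and in 1.92% of those of genes at least 2-fold higher. A match is a description of the letters and not a test of binding.

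In the family of TXNIP and its regulators, ARRDC4, an arrestin-domain gene induced with TXNIP by glucose, rose by 1.43, from between 85.1 and 122.0 to between 253.0 and 336.0. ARRDC2, ARRDC1 and the MYC-network factor MNT rose by 0.72, 0.54 and 0.52. ARRDC3, the glucose transporter gene SLC2A1 and hexokinase HK2 fell by 0.38, 0.88 and 0.52. HK2 turned to 0.22 (adjusted p = 0.0051) with averaged probe sets, and ARRDC3 lost its call without BEZ235 max replicate 1 (adjusted p = 0.0831), as ARRDC1 (0.17) and MNT (0.23) did with averaged probe sets. In total 6 of 14 tested rose and 3 fell, and 3 of 11 rose with the filter at the 60th percentile.

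The BCL2 family showed its largest changes among BH3-only genes, whose products start apoptosis. BMF, a BH3-only gene, was near background with DMSO at 8.2, 14.3, 16.2 and 10.7 and at 160.8, 135.2, 150.5 and 151.2 with BEZ235 (2.55 ± 0.12, adjusted p = 1.41e-19). HRK, another, rose from 25.5, 32.1, 37.0 and 33.1 to 136.4, 142.6, 128.8 and 124.3 (1.64 ± 0.21, adjusted p = 2.05e-08). PMAIP1, which encodes NOXA, moved the opposite way, from 738.8, 803.3, 911.4 and 797.6 to 243.7, 460.7, 445.3 and 473.2 (-1.02 ± 0.12). BCL2L11, which encodes BIM and is a textbook FOXO target, rose by 0.30, with signals of 132.2 to 230.3 and 233.4 to 254.0. That call was lost without DMSO replicate 4 (0.13, adjusted p = 0.238), and the value was -0.03 with averaged probe sets.

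Across the family, 6 of 17 tested genes rose and 8 fell, with a median of -0.16. Among the survival genes BCL2L1 fell by 0.41, BCL2A1 by 0.22 and MCL1 by 0.16, BCL2L2 rose by 0.32, and BCL2 at -0.06 was not called. The pore formers divided: BAK1 fell by 0.46, BOK rose by 0.47 and BAX differed by -0.18. BIK rose by 0.41, BID, BNIP3 and BNIP3L fell by 0.28, 0.51 and 0.23, and BAD stood at -0.14. BCL2L1 was not called without DMSO replicate 2 (-0.22, adjusted p = 0.124), nor MCL1 without BEZ235 max replicate 1 (adjusted p = 0.109) nor BIK after quantile normalization (0.29, adjusted p = 0.102), and BAX was called after quantile normalization (-0.20, adjusted p = 0.0304). With the stricter filter 2 of 11 tested members rose.

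Most lysosomal hydrolases rose. Of 59 tested lysosome genes, 31 were higher and 7 lower, with a median of 0.21. Among the 34 hydrolases 22 were higher and 2 lower, with a median of 0.36. The rise was not shared by the other roles of the list. Of 23 membrane and pump genes 9 were higher and 4 lower, with a median of 0.06, near the 0.04 of all genes. Of the 2 transcription factors of the list 0 were higher and 1 lower. CTSF, the cysteine protease cathepsin F, read 45.3, 41.8, 54.5 and 58.4 with DMSO and 235.3, 245.8, 248.8 and 269.9 with BEZ235 (2.02 ± 0.15, adjusted p = 3.45e-14). The glycosidases MANBA, HEXA, IDUA and MAN2B1 rose by 1.12, 0.86, 0.87 and 0.79, the sulfatase ARSA by 0.93 and cathepsin O (CTSO) by 0.95. CTSD, the main aspartic protease of the lysosome, rose by 0.72 ± 0.07, and acid alpha-glucosidase (GAA) by 0.69 ± 0.14. GLA, alpha-galactosidase A, fell from between 607.0 and 724.9 to between 363.4 and 412.5 (-0.82 ± 0.06). Quantile normalization moved the lower members from 7 to 11.

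CTSD and GAA are shown because their promoters hold the CLEAR motif, the site named for lysosomal genes that the factor TFEB binds. The letters searched were GTCACGTG on either strand, which contain the E box CACGTG. CTSD is on the minus strand at chr11:1763942-1763999 and GAA on the plus strand at chr17:80101478-80101580, with 2 matches in GAA.
CTSD: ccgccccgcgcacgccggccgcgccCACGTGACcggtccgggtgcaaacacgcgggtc
GAA: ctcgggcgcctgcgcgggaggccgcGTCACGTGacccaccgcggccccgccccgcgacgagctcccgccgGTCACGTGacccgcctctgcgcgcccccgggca
The 8 letters were in 9 of 42 lysosome-list promoters (21.4%), in 4.24% of those of all tested genes and in 2.27% of all promoters. They were in 6.9% of promoters of genes at least 2-fold higher and in 3.87% of those at least 2-fold lower. The shorter E box was in 31.0% of lysosome-list promoters, in 16.9% of promoters of genes at least 2-fold higher, in 8.39% of those at least 2-fold lower and in 9.22% of those of all tested genes.

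Of 41 tested autophagy genes 15 rose and 11 fell, close to the shares of all genes, with a median of 0.10. MAP1LC3A, a membrane marker of autophagosomes, rose from between 12.8 and 29.1 to between 64.8 and 95.4 (1.33 ± 0.13), the cargo receptor OPTN rose by 1.11, and ATG14, a partner of PIK3C3, rose by 0.95. The receptors NBR1 and CALCOCO2 and the starting kinase ULK1 rose by 0.56 to 0.71. The protease ATG4A and the conjugation factor ATG5 fell by 0.92 and 0.71.

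Ribosomal protein genes shared a small upward shift. Of 51 tested, 43 rose and 0 fell in limma (45 and 0 at an unadjusted p under 0.05, against 35.0% and 26.9% of all genes), with a median of 0.23 and a range of 0.03 to 0.39. RPL31 had the largest difference, from between 160.2 and 235.6 to between 251.5 and 288.2 (0.39 ± 0.08), and RPL22 rose by 0.35. These are among the brightest genes of the arrays, and the count depended on the scaling: 24 of 51 rose after quantile normalization and 28 without DMSO replicate 2. On the 4 DMSO arrays the list's median deviation was 0.061, -0.134, 0.111 and -0.039, with replicate 2 lowest, and on the BEZ235 max arrays 0.187 to 0.258. Ribosomal proteins have many processed pseudogenes, and probe sets may not separate near-identical copies.

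In the translation machinery, 18 of 42 tested factors rose and 4 fell. The elongation factor EEF1A1 read 496.9, 504.9, 455.0 and 501.8 with DMSO and 858.8, 840.0, 871.8 and 861.0 with BEZ235 (0.79 ± 0.08). EIF2A rose by 0.79, and EIF3G, EIF3D, EIF3F and EIF3M rose by 0.39 to 0.52, of which EIF3M stood at 0.03 (adjusted p = 0.623) with averaged probe sets. EIF4G1, the scaffold of the cap-binding complex, fell by 0.42. Lower members numbered 8 after quantile normalization and 10 when all probe sets of a gene were averaged.

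Of 55 tested ribosome biogenesis genes, 12 rose and 8 fell, both shares below those of all genes. NOB1, the nuclease that finishes the small-subunit RNA, rose from between 269.0 and 318.2 to between 648.0 and 716.4 (1.15 ± 0.08), and the RNA polymerase I subunit gene POLR1E rose by 0.90. PNO1, the partner of NOB1, fell by 0.79, and the RNA polymerase III subunit genes POLR3K and POLR3G fell by 0.80 and 0.73. Lower members numbered 14 with the 8 arrays alone and 16 with 39 arrays. Of 16 tRNA synthetase genes 2 rose and 4 fell, the lower count close to the share of all genes, led by WARS1 at -0.61.

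Most genes of the amino acid stress programme of ATF4 fell. Of 35 tested genes of ATF4 and its targets, 21 fell and 3 rose, with a median of -0.36. ASNS, asparagine synthetase, read 725.1, 739.2, 725.1 and 757.3 with DMSO and 249.4, 256.2, 259.2 and 236.6 with BEZ235 (-1.50 ± 0.10, adjusted p = 7.31e-15). CHAC1, which degrades glutathione, fell from between 62.7 and 95.5 to between 13.8 and 21.8 (-1.39 ± 0.12), and PSAT1, of serine synthesis, from between 1285.8 and 1398.5 to between 581.4 and 615.5 (-1.15 ± 0.05). CTH, MTHFD2 and CBS, enzymes of cysteine and one-carbon metabolism, fell by 0.72 to 0.87. PPP1R15A, the phosphatase subunit that reopens translation after stress, rose by 1.23, from between 62.9 and 76.6 to between 177.0 and 186.2.

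The promoters of ASNS and CHAC1 are printed because both fell by at least 2-fold and hold an amino acid response element, the composite site bound by ATF4 with another leucine zipper factor. The letters searched were TGATGNAAN on either strand. ASNS is on the minus strand at chr7:97872443-97872501 and CHAC1 on the plus strand at chr15:40953236-40953294, where the match reads on the opposite strand.
ASNS: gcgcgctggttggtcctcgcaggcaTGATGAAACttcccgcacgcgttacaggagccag
CHAC1: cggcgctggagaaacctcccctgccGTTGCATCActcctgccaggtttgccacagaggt
The element was in 4 of 29 promoters of the list (13.8%), in 5.81% of promoters of genes at least 2-fold lower, in 1.92% of those at least 2-fold higher, in 1.42% of those of all tested genes and in 3.18% of all promoters.

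Chaperones of the endoplasmic reticulum fell with few exceptions. Of 22 tested, 16 were lower and 3 higher, with a median of -0.36. HYOU1 read 879.3, 772.8, 810.3 and 775.6 in the controls and 296.7, 251.0, 289.0 and 282.6 with BEZ235 (-1.48 ± 0.06, adjusted p = 8.79e-21). HSPA5, which encodes the central chaperone BiP, went from 2124.3, 2090.4, 2138.7 and 2022.4 to 1016.7, 1022.3, 985.9 and 988.1 (-1.05 ± 0.06). SDF2L1, calreticulin (CALR), ERO1B, CRELD2 and DNAJB11 fell, from -1.40 for SDF2L1 to -0.94 for DNAJB11. ERN1, the stress sensor IRE1, rose by 1.10, from between 145.9 and 210.4 to between 371.2 and 393.2.

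HYOU1 and SDF2L1 carry repeated CCAAT boxes, which form part of the endoplasmic reticulum stress element, and are shown for that reason. The letters searched were CCAAT, read as ATTGG on the opposite strand. HYOU1 is on the minus strand at chr11:119057254-119057404 with 2 matches, and SDF2L1 on the plus strand at chr22:21642075-21642298 with 4.
HYOU1: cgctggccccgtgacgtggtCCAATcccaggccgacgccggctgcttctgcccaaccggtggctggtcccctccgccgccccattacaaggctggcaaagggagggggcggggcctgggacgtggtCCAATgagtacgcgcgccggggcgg
SDF2L1: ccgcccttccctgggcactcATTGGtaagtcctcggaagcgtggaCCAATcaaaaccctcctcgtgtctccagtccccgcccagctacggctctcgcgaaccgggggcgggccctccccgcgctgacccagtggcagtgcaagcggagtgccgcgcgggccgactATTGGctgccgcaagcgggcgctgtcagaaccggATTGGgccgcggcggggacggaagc
A CCAAT box was in 18 of 21 promoters of the list (85.7%), in 33.0% of all promoters and in 35.2% of those of tested genes. It was in 36.8% of promoters of genes at least 2-fold lower and in 32.2% of those at least 2-fold higher. The box was also common in other lists, at 76.2% for cholesterol, 73.3% for histone and 63.8% for mitosis genes, so it is not particular to the chaperones.

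Cytosolic protein folding and turnover genes were lower by smaller amounts. Of 12 tested heat shock genes, 8 fell and 0 rose in limma (8 and 0 at an unadjusted p under 0.05), with a median of -0.30. DNAJB1 fell by 0.63, DNAJA1 by 0.65, the co-chaperone BAG3 fell by 0.61 and HSPH1 and HSPA4 fell by 0.49 each. Of 28 proteasome genes, 13 fell and 1 rose, with a median of -0.15. PSMD11, a lid subunit of the regulatory particle, was at 761.7 to 819.7 with DMSO and at 405.4 to 439.7 with BEZ235 (-0.88 ± 0.08), and PSMD2 and PSMD1 fell by 0.62 and 0.61.

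Genes of sterol and fatty acid synthesis fell more often than they rose. Of 23 tested cholesterol genes, 10 were lower and 4 higher, with a median of -0.14. ACAT2, the thiolase of the first step, read 1103.5, 1093.3, 1094.7 and 1050.3 with DMSO and 343.2, 327.5, 344.1 and 361.2 with BEZ235 (-1.61 ± 0.06, adjusted p = 9.39e-22). STARD4, a sterol carrier, fell from between 139.1 and 148.9 to between 36.6 and 43.2 (-1.50 ± 0.08), and HMGCS1, INSIG1, DHCR7 and SQLE fell, from -0.96 for HMGCS1 to -0.61 for SQLE. TM7SF2, a sterol reductase, and the sterol sensor NR1H3 rose by 0.74 and 0.64. Of 25 fatty acid and glycerolipid genes, 14 fell and 5 rose, with a median of -0.21. SREBF1, the transcription factor of lipogenesis, fell by 0.94, the elongase ELOVL6 by 1.02, ME1 by 0.80, SCD5 by 0.73 and GPAM by 0.55. DGAT2, which makes triglyceride, and ACACB rose by 0.96 and 0.70. The higher members numbered 2 of 14 tested with the stricter filter and 3 after quantile normalization.

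Glycolysis and hypoxia genes were lower in 15 and higher in 6 of 35 tested, with a median of -0.13. TIGAR, a phosphatase that slows glycolysis, fell most, from 391.0, 330.1, 325.2 and 373.6 to 96.9, 89.6, 80.0 and 86.6 (-1.83 ± 0.10, adjusted p = 5.25e-18). Aldolase C (ALDOC) fell by 1.30, the pyruvate dehydrogenase kinase PDK1 by 1.01 and the collagen prolyl hydroxylases P4HA2 and P4HA1 by 0.96 and 0.56, and PFKFB2 rose by 0.60. Of 58 respiratory chain genes 14 fell, close to the share of all genes, and 8 rose, a share below that of all genes. Their median was -0.01, the mitochondrial transcription factor TFAM had the largest difference at -0.64, and 5 rose without DMSO replicate 2. Among 6 pentose phosphate genes PGLS rose by 0.45 and TKT by 0.24, and TALDO1 fell by 0.15; TKT was 0.14 and not called with averaged probe sets (adjusted p = 0.0536).

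Of 24 nucleotide synthesis genes, 10 fell and 8 rose, the higher count close to the share of all genes, with a median of -0.09. CTP synthase (CTPS1) fell from between 937.1 and 1045.6 to between 507.4 and 573.6 (-0.85 ± 0.06), thymidine kinase (TK1) fell by 0.72, and IMPDH1 and PRPS1 fell by 0.48 and 0.41. IMPDH2, CAD and CTPS2 rose by 0.48, 0.45 and 0.41, so the CTP synthases were called in opposite directions. IMPDH1 lost its call in 11 of the alternatives (-0.33, adjusted p = 0.207, without BEZ235 max replicate 2), and CAD without BEZ235 max replicate 1 (adjusted p = 0.0597).

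Antioxidant genes driven by NRF2 fell in 13 and rose in 1 of 27 tested, with a median of -0.20. GCLM, the modifier subunit of glutathione synthesis, read 758.6, 790.8, 738.8 and 768.0 with DMSO and 246.5, 309.6, 287.1 and 263.1 with BEZ235 (-1.42 ± 0.10, adjusted p = 2.89e-14). OSGIN1 fell by 1.31, the cystine transporter SLC7A11 by 0.54, HMOX1 by 0.49, CAT by 0.41 and PRDX1 by 0.38, and GPX4 rose by 0.49. In the iron list, TFRC, the transferrin receptor, went from between 2129.9 and 2298.2 to between 1212.7 and 1307.1 (-0.82 ± 0.07), and SLC11A2 and ACO1 fell by 0.91 and 0.37. ACO1 stood at 0.08 with averaged probe sets, and HMOX1 was not called without DMSO replicate 4 (adjusted p = 0.0717). Of the list's 8 tested genes 4 fell and NCOA4, the receptor for ferritin turnover, rose by 0.28.

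Most mitotic genes fell, by small amounts. Of 68 tested, 53 fell and 2 rose, with a median of -0.42, and 18 of 21 kinetochore and checkpoint genes fell. CDC25A, the phosphatase that activates cyclin-dependent kinases, read 609.5, 624.7, 632.1 and 603.7 with DMSO and 187.9, 195.2, 187.5 and 179.1 with BEZ235 (-1.64 ± 0.06, adjusted p = 2e-23). The cell cycle factor MYBL2 fell by 1.09, the kinetochore protein SPC25 by 1.00, the cohesin protectors SGO2 and SGO1 by 0.95 and 0.84, the condensin subunit NCAPH by 0.85, CENPI by 0.79 and the checkpoint kinase BUB1 by 0.78. Most falls were under 2-fold, with 2 of the 68 genes past that size.

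CDK1 is the mitotic kinase and CDCA8 belongs to the chromosomal passenger complex. Their promoters are shown for a match to the letters of the cell cycle homology region (CHR), a site bound by regulatory complexes of G2/M genes. Whether either match is a working CHR was not tested. CDK1 read 1459.5 to 1803.6 with DMSO and 943.8 to 1106.6 with BEZ235 (-0.66 ± 0.09), and CDCA8 442.2 to 502.0 and 239.0 to 318.7 (-0.71 ± 0.07). The letters searched were TTTGAA on either strand. CDK1 is on the plus strand at chr10:60778145-60778200 and CDCA8 on the plus strand at chr1:37692468-37692515.
CDK1: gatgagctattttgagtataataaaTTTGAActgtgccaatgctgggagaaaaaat
CDCA8: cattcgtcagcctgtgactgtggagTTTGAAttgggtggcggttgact
The 6 letters were in 27 of 58 promoters of the mitosis list (46.6%), in 13.6% of all promoters and in 8.53% of those of tested genes. They were in 10.3% of promoters of genes at least 2-fold lower and in 6.13% of those at least 2-fold higher.

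DNA replication genes were lower in 29 and higher in 8 of 53 tested, with a median of -0.21. CDC6, which loads the replicative helicase, fell from between 435.4 and 494.2 to between 165.8 and 237.4 (-1.11 ± 0.09), whereas CDT1, its partner in that step, rose from between 79.8 and 97.0 to between 212.5 and 235.8 (1.23 ± 0.09). ASF1B, DBF4, CLSPN, MCM8, ORC6 and GINS1 fell by 0.77 to 1.05. In DNA repair 16 of 36 tested genes fell and 8 rose, with FANCB at -1.25, FANCM at -0.73 and RAD54B at -0.61 on the lower side and ERCC6 at 1.11 and XPC at 0.50 on the higher side. Homologous recombination and crosslink genes fell in 13 of 18 and rose in 2.

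Among G1 to S genes, 14 of 30 fell and 10 rose. Of 18 cyclin, kinase and E2F genes 12 fell and 3 rose, with a median of -0.26. That group is not made of drivers alone, as it holds the repressors E2F7 and E2F8. Of 12 brakes 7 rose and 2 fell, with a median of 0.29. SKP2, the ubiquitin ligase subunit that degrades the inhibitor p27, read 294.8, 308.0, 295.1 and 364.9 with DMSO and 103.5, 84.4, 84.8 and 61.6 with BEZ235 (-1.75 ± 0.11, adjusted p = 4.77e-16). Cyclins D3 (CCND3) and E2 (CCNE2) fell by 1.31 and 0.87 and the repressors E2F7 and E2F8 by 0.76 and 0.68. The retinoblastoma gene RB1 rose from between 258.8 and 299.7 to between 504.9 and 563.9 (0.94 ± 0.09). TFDP2 rose by 0.68.

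Tubulin genes fell in 10 and rose in 1 of 13 tested, with a median of -0.54. TUBB2B read 580.0, 591.8, 569.5 and 471.5 with DMSO and 211.5, 208.0, 177.5 and 213.9 with BEZ235 (-1.38 ± 0.08, adjusted p = 1.34e-16), and TUBA1A 817.0 to 907.8 and 290.8 to 410.9 (-1.23 ± 0.13). TUBB2A, TUBB6, TUBG1 and TUBD1 fell by 0.68 to 0.80, TUBA4A by 0.54, TUBA1C and TUBB4B by 0.28 each and TUBB by 0.13, which was not called with averaged probe sets (-0.04) or without BEZ235 max replicate 1 (adjusted p = 0.0821). TUBB3 at -0.12 (called at -0.19 after quantile normalization) and TUBE1 at -0.10 were not called, and TUBG2 rose by 0.54. Close copies among tubulins and histones may share probes. Of 15 histone genes 5 rose and 4 fell, close to the shares of all genes, from H2AC25 at 1.34 to the variant H2AZ2 at -0.68.

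Targets of p53 were lower in 11 and higher in 2 of 23 tested, with a median of -0.18. They include TIGAR, SESN1, SESN2 and PMAIP1, given above, the secreted stress cytokine GDF15 (-0.82), AEN (-0.80) and the death receptor FAS (-0.70). CYFIP2 rose by 1.17, from between 29.9 and 41.0 to between 90.7 and 107.5. In the MYC network 9 of 22 rose and 4 fell, and MYC itself rose from between 105.7 and 121.3 to between 203.3 and 274.6 (0.94 ± 0.13).

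Genes that report MAPK activity rose more often than they fell. Of 26 tested, 14 were higher and 1 lower, with a median of 0.24. FOSL1, an AP-1 subunit downstream of ERK, read 586.8, 567.7, 593.2 and 618.0 with DMSO and 951.3, 887.0, 840.7 and 894.6 with BEZ235 (0.58 ± 0.08, adjusted p = 2.99e-07). The ERK pathway inhibitors SPRY1 and SPRY2 rose by 0.63 and 0.44, MAFF by 0.71, and EGR1, EPHA2 and KCNN4 by 0.35 to 0.36. Cyclin D1 (CCND1), named here though outside the naming rule as a well-known output, differed by 0.16 and was not called.

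Immediate early genes rose in 12 and fell in 2 of 20, with a median of 0.34. The orphan nuclear receptors NR4A2 and NR4A3 rose by 1.51 and 1.34, KLF10 by 1.01, KLF2 by 0.76 and KLF6 by 0.65. JUN fell from 78.6, 90.9, 81.7 and 79.5 to 20.2, 20.5, 12.4 and 20.8 (-1.52 ± 0.12, adjusted p = 6.45e-14), and EGR3 fell by 0.80. After quantile normalization 5 members were lower.

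Most pigmentation genes of the melanocyte rose. Of 22 tested genes, 15 were higher and 1 lower, with a median of 0.30. MLANA, the melanosome antigen MART-1, read 253.7, 263.0, 262.2 and 283.5 with DMSO and 731.5, 854.8, 815.8 and 748.1 with BEZ235 (1.51 ± 0.07, adjusted p = 1.33e-20). OCA2 rose by 1.20, TRPM1 by 0.96, MLPH by 0.94, tyrosinase (TYR) by 0.81, TYRP1 by 0.80 and GPR143 and PMEL by 0.66 each. MITF, at 1591.6 to 1843.5 and 1716.8 to 1886.6, differed by 0.06 and SOX10 by 0.05, and neither was called; MITF was, at 0.11, without DMSO replicate 3 (adjusted p = 0.028). Of 23 neural crest factors 6 rose, a share below that of all genes, and 6 fell, close to the share of all genes. They ran from SOX5 at -0.69 to SOX4 at 0.49. Genes of the dedifferentiated melanoma state rose in 8 and fell in 5 of 21, near the shares of all genes. Their median was 0.03, against 0.04 over all genes. ROR1 at -1.13, LOXL2 at -1.26 and TNC at -0.48 stood against DKK1 at 1.01 and FN1 at 0.78. With the stricter filter 2 of 14 fell.

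Antigen presentation genes rose almost throughout. Of 26 tested, 21 were higher and 1 lower, with a median of 0.43. HLA-E read 441.6, 433.5, 444.4 and 433.1 with DMSO and 864.9, 885.7, 854.4 and 847.2 with BEZ235 (0.95 ± 0.06, adjusted p = 2.24e-15). TAPBPL, a peptide editor of class I molecules, rose by 0.97, the class I activator NLRC5 by 0.64 and HLA-G by 0.57. On the class II side the master activator CIITA rose by 0.63, HLA-DRA by 0.54 and the invariant chain CD74 by 0.52. HLA-DRA lost its call in 8 of the alternatives (0.46, adjusted p = 0.0729, after quantile normalization). B2M, the class I light chain, named outside the rule because it is shared by all class I molecules, differed by 0.13 and was not called, though it was without DMSO replicate 3 (0.16, adjusted p = 0.0305). Probe sets of HLA genes may cross-react between close copies.

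Of 54 interferon-stimulated genes, 22 rose and 8 fell, with a median of 0.14, and 11 of 30 rose with the stricter filter. RSAD2 and HERC6 rose by 1.02 each, the RNA sensor IFIH1 by 0.99, OAS3 by 0.96, PARP14 by 0.95 and TLR3 by 0.91. The guanylate-binding proteins GBP2 and GBP1 went the opposite way, from between 196.4 and 240.4 to between 80.4 and 95.2 (-1.14 ± 0.09) and from between 114.8 and 135.7 to between 44.7 and 74.3 (-1.03 ± 0.13).

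Chemokines and cytokines fell more often than they rose, and regulators of NF-kB the reverse. Of 17 tested chemokine and cytokine genes 8 fell and 2 rose, and of 14 NF-kB regulators 9 rose and 1 fell. CCL2 read 79.1, 76.7, 102.9 and 79.9 with DMSO and 15.8, 15.8, 17.6 and 19.3 with BEZ235 (-1.60 ± 0.13). CXCL8 fell from between 278.5 and 320.4 to between 92.2 and 125.8 (-1.35 ± 0.19), CXCL1 from between 899.6 and 1115.4 to between 401.0 and 447.9 (-1.22 ± 0.10), and IL32 (-1.21) and IL11 (-0.70) fell as well. TNFAIP3, which switches NF-kB off, rose by 1.04. With the stricter filter the whole list had 4 of 14 members lower.

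Adhesion and matrix genes moved in both directions, read here against 25.2% lower and 32.7% higher of all genes. Of 41 tested collagen and matrix genes, 17 fell and 9 rose, with LOXL2 at -1.26, the plasminogen activator PLAT at -1.20, FBN2 at -0.97, MMP8 at -0.89, COL1A1 at -0.88 and MMP15 at -0.80. FN1, fibronectin, rose from 1868.2, 1684.6, 1875.1 and 1834.7 to 3163.1, 3228.9, 3005.0 and 3138.6 (0.78 ± 0.09). Of 25 integrin and laminin genes 9 rose and 7 fell, close to those shares. ITGA4 fell by 1.49, ITGB8 by 1.33 and ITGB3 by 0.49, and ITGB4, LAMB2, ITGA7, ITGA3 and ITGA10 rose by 0.49 to 1.20.

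Of 26 tested actin cytoskeleton genes 8 fell and 4 rose, close to the share of all genes that fell. ACTG2 read 1379.0, 1125.3, 1395.0 and 1399.2 with DMSO and 487.5, 413.5, 472.8 and 484.0 with BEZ235 (-1.48 ± 0.08, adjusted p = 4.01e-18). MYL9, TAGLN and MYLK fell by 1.17, 1.16 and 0.56, CAPG rose by 0.86, and the actin gene ACTA2, named outside the rule, differed by 0.06 and was not called. Of 25 YAP and TEAD genes 11 rose and 5 fell, with F3, tissue factor, at -1.18 against CCN1 at 0.84, SAV1 at 0.81 and LATS2 at 0.51; 8 fell with the 8 arrays alone. Of 30 TGF-beta and BMP genes 11 fell and 6 rose, among them TGFBR3 at -1.17 and LTBP1 at -0.76 against LTBP2 at 0.79 and ID1 at 0.64, and 3 of 22 rose with the stricter filter.

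**Figure D4:**
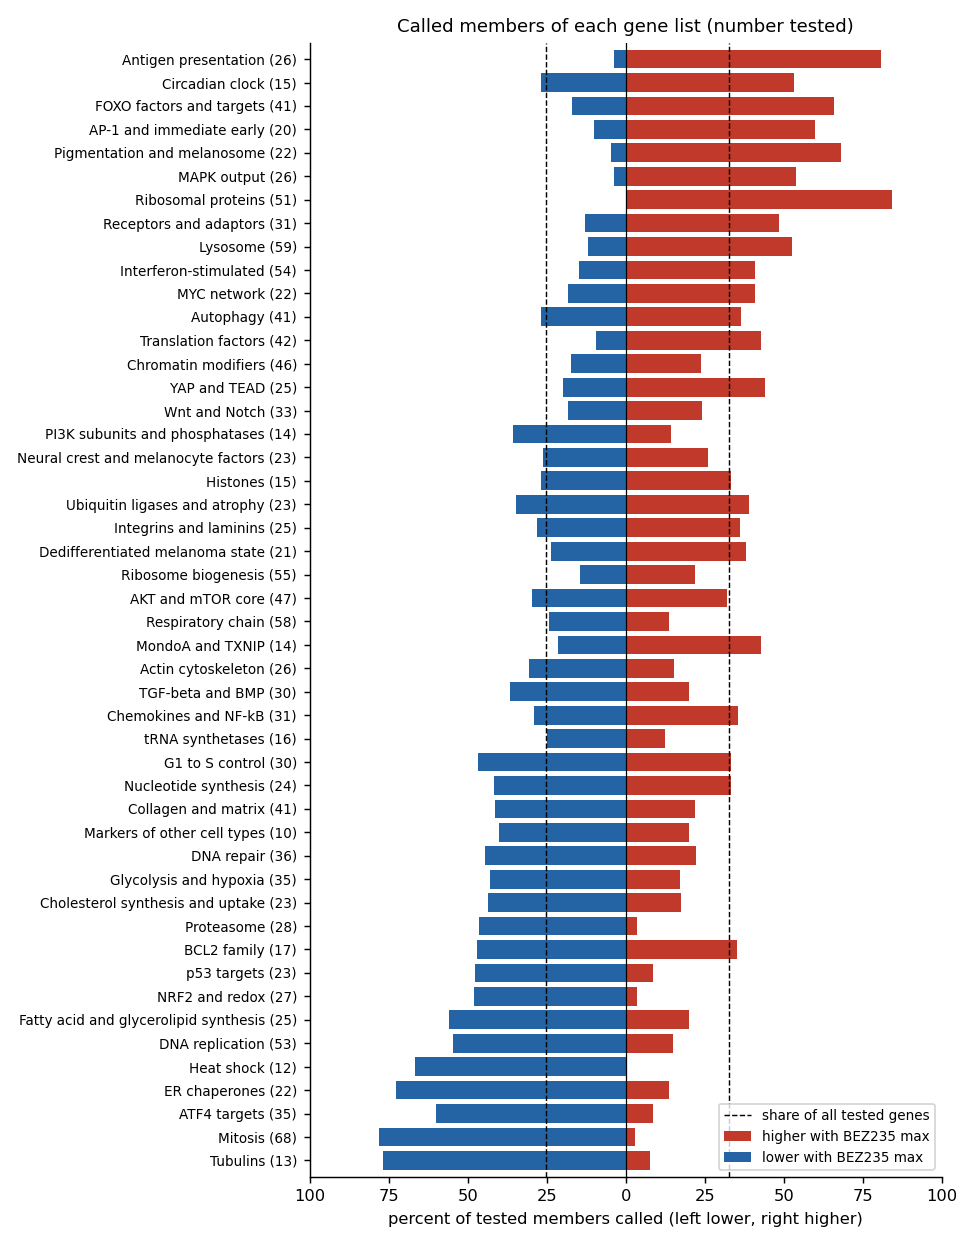
Percent of the tested members of each gene list that were called higher (red, to the right) or lower (blue, to the left) with BEZ235 max, with the number tested in brackets, lists of at least 10 tested genes ordered by their median difference, and dashed lines at the shares of all tested genes, 32.7% and 25.2%. Antigen presentation, FOXO, pigmentation and ribosomal protein lists reach farthest to the right, and mitosis, tubulin and chaperone lists farthest to the left.

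Clock and chromatin genes held a few large changes. BMAL1, the positive arm of the circadian clock, read 142.3, 129.7, 126.2 and 138.7 with DMSO and 41.0, 41.5, 45.6 and 40 with BEZ235 (-1.37 ± 0.08, adjusted p = 4.43e-17), and CRY1, a repressor, fell by 1.36. NR1D2, CSNK1D, CRY2 and TEF rose by 0.60 to 0.79, and CLOCK and BHLHE40 fell by 0.59 and 0.63, which made 8 higher and 4 lower of 15; 5 of 10 rose with the stricter filter. Of 46 chromatin modifiers 11 rose and 8 fell, both shares below those of all genes. HDAC9, HDAC11 and HDAC5 rose by 1.67, 1.14 and 0.99, and CBX7, BRD3 and KDM7A by 1.06, 0.89 and 0.64. Of 33 Wnt and Notch genes 8 rose and 6 fell, both shares below those of all genes. In the ubiquitin ligase list 9 of 23 rose and 8 fell, both shares above, with FBXO31 and FBXL20 at 1.10 and 1.07.

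The highest BEZ235 level was also set directly against BEZ235 at IC90, which asks what the last step in concentration added. Far fewer genes were called: 184 of 11865 (1.55%) were higher and 147 (1.24%) lower at max. The counts rose to 356 and 261 when the degraded array was left out of the shared variance. IL24 led the higher genes, with 345.8, 324.8, 356.5 and 345.1 at IC90 and 779.0, 685.6, 730.6 and 735.9 at max (1.06 ± 0.08, adjusted p = 8.64e-11). HDAC9 rose by 0.72 and CARD16 by 0.65 in this step, both above DMSO already at IC90. The CARD16 step lost its call with a pseudocount of 1 (0.9, limma adjusted p = 0.255). That call was also lost without max replicate 1 (adjusted p = 0.0527) or IC90 replicate 2 (adjusted p = 0.054). CCN1, a secreted matrix protein, was at 433.3 to 536.9 at IC90, close to 418.2 to 458.4 with DMSO, and at 691.3 to 1014.2 at max (0.73 ± 0.12). AK5, an adenylate kinase, rose by 0.71, and the dynamin DNM3 was at 37.7 to 64.8 with DMSO, 34.4 to 38.6 at IC90 and 70.5 to 83.7 at max. PMS2P8 differed by 0.66 and lost its call in 11 of the alternatives, as with every array centred on its median (0.64, adjusted p = 0.0527).

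Some genes of this step crossed back towards the DMSO level. NGFR, the nerve growth factor receptor of neural crest cells, read 168.6, 153.5, 155.3 and 161.5 with DMSO, 75.3, 68.1, 66.9 and 80.1 at IC90 and 180.0, 141.0, 115.5 and 140.0 at max. It was 0.84 ± 0.14 higher at max than at IC90 (adjusted p = 0.000127), and at max it differed from DMSO by -0.15, which was not called. CXCR4, a chemokine receptor, showed 29.4 to 49.0, 8.6 to 26.4 and 31.5 to 51.1 in the same order, with a step of 0.77 (adjusted p = 0.00643), or 0.62 and not called without IC90 replicate 1 (adjusted p = 0.0622). RAB27B, a small GTPase of vesicle transport, rose by 0.70 from IC90 to max, but 1 array, replicate 3, at 352.8 stood above the others at 149.3 to 177.6, and without it the step was 0.44.

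Genes that fell further at max included members already low at IC90. SESN3 went from between 226.7 and 271.0 at IC90 to between 125.8 and 156.6 at max (-0.76 ± 0.08, adjusted p = 1.1e-07), PIK3R3 changed by a further -0.63 and ST6GALNAC3 by -0.70. Averaging probe sets ended the calls of the SESN3 step (-0.17, adjusted p = 0.151) and the PIK3R3 step (-0.35, adjusted p = 0.0688), and the latter was also not called without max replicate 4 (-0.54, adjusted p = 0.0737). IGSF11, an adhesion protein, and the retinal reductase DHRS3 each fell by 0.83, FXYD3 by 0.73 and KCNJ10 by 0.64. GDF15 was at 488.8 to 519.4 with DMSO, 424.5 to 526.2 at IC90 and 259.0 to 301.9 at max, so its fall of 0.75 lay in the last step. ATOH8 and LRGUK likewise fell by 0.69 and 0.61 from IC90 levels near those with DMSO.

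The gene lists given here include several with the most called genes in this step, beside 1.55% higher and 1.24% lower of all genes. Lists picked by that count stand above these shares by the choice itself, and on few members. Of 21 genes of the dedifferentiated melanoma state 4 were higher and 1 lower at max than at IC90, with a median step of 0.09. Of 25 YAP and TEAD genes 3 were higher and 0 lower in limma (5 and 2 at an unadjusted p under 0.05), and of 23 neural crest factors 3 were lower and 0 higher, with a median step of -0.11. The chemokine and NF-kB list had 1 of 31 genes higher and 0 lower, a median step of 0.13 and, at an unadjusted limma p under 0.05, 8 higher and 0 lower, against 6.70% higher and 5.32% lower of all genes. Of the mitosis list 0 of 68 genes were called in limma, with a median of -0.05, and 0 were higher and 4 lower at an unadjusted p, which is near the shares of all genes. In the FOXO list 3 were higher and 1 lower, in the antigen presentation list 1 was higher, with a median step of 0.09, and in the ATF4 list 4 were higher and 1 lower. In the immediate early list 3 were higher and 1 lower, with a median step of 0.11. On each array the FOXO list stood at 0.370 to 0.438 at IC90 and 0.314 to 0.377 at max relative to DMSO, and the antigen presentation list at 0.284 to 0.359 and 0.391 to 0.437.

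**Figure D5:**
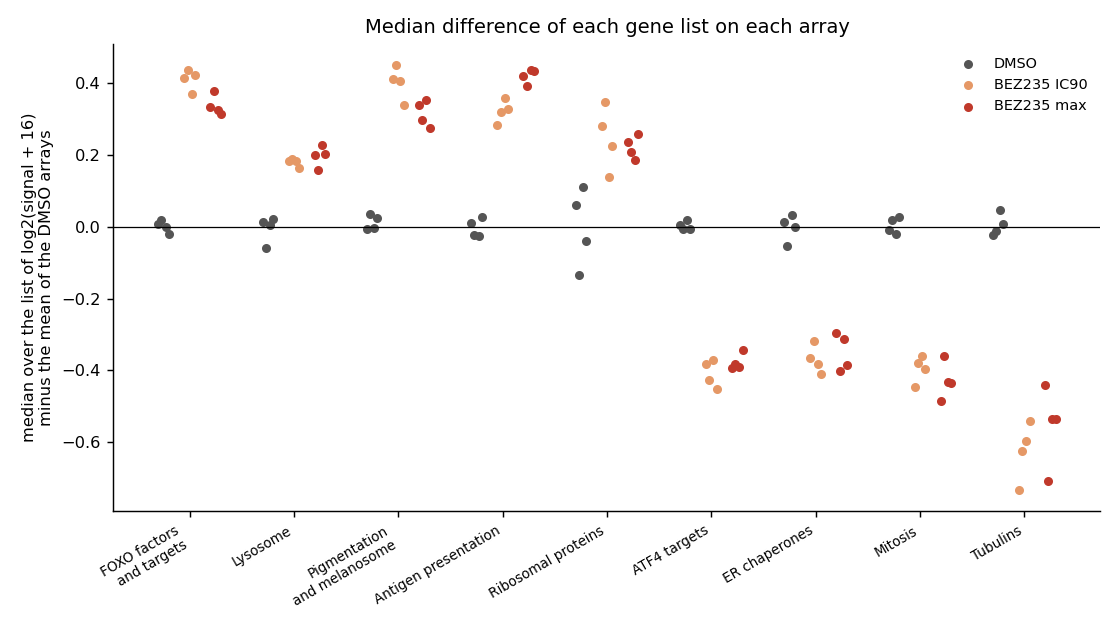
Median over the tested members of 9 gene lists of log2(signal + 16) minus the mean of the DMSO arrays, for each of the 4 arrays with DMSO, BEZ235 IC90 and BEZ235 max. At IC90 and at max the arrays lie on the same side of 0 for each list, and the antigen presentation list parts between the levels, at 0.284 to 0.359 and 0.391 to 0.437.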

How the data were processed

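RNA of 40 cultures of A2058 cells was measured on 1-colour arrays, after linear amplification of 50 ng total RNA per the labels. The deposited values were intensity values on a linear scale, made with MAS5, of no stated version, per the submitters' processing notes. Each array had a mean of 150 without its highest and lowest 2%, so every array carries a single scaling factor. Of 54675 probe sets, 41091 had 1 gene symbol, 1801 several and 11721 none, and 62 were controls; symbols came from the platform annotation, and 41037 probe sets matched RefSeq by gene ID. Each of 19775 genes was read from its brightest probe set, with cross-hybridising designs used only where no other existed, and 11865 genes above the 40th percentile (mean signal 13.6) were tested. Values became log2(value + 16) with no further normalization. limma 3.58.1 in R 4.3.3 estimated 10 group means from all 40 arrays, leaving 30 residual degrees of freedom, with a trended variance, with Benjamini-Hochberg adjustment over all genes and a threshold of 0.05.

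Replicates within a group correlated at 0.9925 to 0.9958 and shared at most 1.52% identical values. Arrays have no read depth, and 4 per group limit the precision. Named genes were the 20 with the largest change in each direction without overlap between groups, and the 10 with the largest step from IC90 in each direction. Placeholder symbols, such as LOC, LINC, KIAA, FAM and open reading frame names, were left out before these rankings. Up to 8 called members of each list and all members of 4 pathway lists were also named. The gene lists, the comparison and the motifs were chosen with earlier results of these data known, so no list is independent support. List counts were read against the share of all genes, with no test over a list. Some members of the lists are not analysed here. Motifs were searched in the 250 bases before each start. Alternatives changed the pseudocount, filter, probe set rule, normalization, arrays fitted and replicate block.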

Additional observations from a re-analysis of the deposited data

Results flagged for a closer look

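In 43 of 790 sets of 4 arrays, each a gene of the text in 1 group, a single array stood apart from the other three by Dixon's criterion, which chance meets in about 1 of 20 sets. DMSO replicate 2 held 12 of them and DMSO replicate 1 held 0.

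In DMSO replicate 2 the lowest readings of their group were ACTG2 at 1125.3, DNAJB11 at 800.1, EIF3D at 1663.6, HLA-G at 690.9, LAMTOR5 at 1503.1, MYBL2 at 122.8, SLC7A11 at 1285.2 and TUBB4B at 2011.0. The same array was highest for DEPTOR at 32.7, ENPP2 at 236.2, RB1 at 299.7 and TXNIP at 316.6. DMSO replicate 3 was lowest for BOK at 73.9, CAPG at 31.1, CAT at 732.5, COL1A1 at 26.1 and EEF1A1 at 455.0, and highest for CCL2 at 102.9. DMSO replicate 4 was lowest for AEN at 163.7, LAMB2 at 133.7 and TUBB2B at 471.5, and highest for MCL1 at 1180.5 and PIK3C3 at 738.2.

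In BEZ235 max replicate 1 PMAIP1 stood apart at 243.7, against 445.3 to 473.2 on the other arrays of that group, and PARP14 at 424.2 and ITGA10 at 48.4 were also lowest. The highest there were TNC at 968.2, POLR3K at 599.4, ACO1 at 253.1, CUL3 at 645.5 and HDAC11 at 50.1. BEZ235 max replicate 2 was highest for CRY1 at 82.4 and MITF at 1886.6 and lowest for HSPA4 at 993.8. BEZ235 max replicate 3 was lowest for JUN at 12.4, FBN2 at 216.6, PPP1R15A at 177.0, SOX10 at 1618.8 and TUBB2B at 177.5, and highest for ACTA2 at 122.4 and TGFBR3 at 119.4. BEZ235 max replicate 4 was lowest for FAS at 114.8 and RRAGC at 892.9.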

How the results depend on the processing

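Across 23 alternatives, 415 comparisons of 395 named genes gave 7751 recomputed values. Of these, 7638 were classed as the same, 79 lost a call, 30 gained one and 4 changed the sign of a called difference. A change of sign in a difference not called in the main fit was classed as the same and not counted. The sign changes of called differences all came from averaging probe sets: ACO1 at 0.08, BCL2L11 at -0.03, EEF2K at -0.07 and HK2 at 0.22. Their cause was not tested.

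The count of genes at least 2-fold higher and lower moved with the pseudocount, from 324 and 193 to 580 and 310 with 1 and to 96 and 68 with 64, since a larger pseudocount shrinks the change of dim genes. With the filter at the 60th percentile, which tests 7910 genes, 2415 were higher, 122 and 100 passed 2-fold in either direction, and 99 were higher at max than at IC90. Averaging probe sets left 192 and 117 past 2-fold. Of the called genes 56.5% were higher, 49.9% after quantile normalization and 52.0% with the stricter filter. The step from IC90 had 314 higher genes with the 8 arrays of the 2 groups, and 356 higher and 261 lower without BEZ235 IC50 replicate 3. Leaving out 1 array at a time gave 116 to 139 higher genes in the step, fewest without BEZ235 max replicate 1, and 100 to 140 lower.

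With the replicate number as a block, 3860 genes were higher and 2969 lower than with DMSO, and 173 and 144 in the step. Arrays with the same number deviated together with correlations of 0.13, 0.30, -0.05 and -0.08, and replicate 2 alone correlated best with its own number. Whether arrays with the same number shared any handling was not tested. The block ended the call of IMPDH1 and that of the PMS2P8 step. The number of arrays and the signal over background, lowest for CARD16 and ZNF300P1 with DMSO, limit the precision.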
